A study of Mus musculus with 141 samples.

Results

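*Aqp1*, *Aqp3*, *Aqp4* and *Aqp5* are the 4 aquaporin genes with a row in the read count matrix, out of 17136 rows in all, and they were taken by name. The matrix holds single cells, 92 kept here and 49 removed, from the lung of 1 male *ACID;R26tdTomato* mouse, 4 months old, whose strain the labels give as 129SV and the study's methods as 129S6/SvEvTac, with no treatment and no second animal. The mouse is heterozygous for 2 alleles. On one, a *Cre-IRES-DsRed* cassette sits in exon 1 of the endogenous *Aqp5* gene, so that Cre follows the *Aqp5* promoter and only the other *Aqp5* allele is intact, and on the other a *tdTomato* gene at *ROSA26* is silent until Cre removes a stop sequence. Cells were sorted as CD31- CD45- E-cadherin+ tdTomato+, a gate meant for epithelial cells that made Cre from the *Aqp5* locus at some time, and were captured on a Fluidigm C1 chip with 1 cell per site. *Aqp5* thereby took part in choosing the cells. A *tdTomato* read was seen in 71 of the 92 kept cells. All cells of 1 mouse count as 1 sample, so no test was possible and no p-value is given. Intervals cover the counting error of reads only, or of cells where a share of cells is given, and no spread between animals.

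Aquaporins are membrane proteins that form water pores. Each chain spans the membrane several times, and a pair of short loops that carry the asparagine-proline-alanine motif meet in the middle of the pore. *Aqp1* is the water channel of red cells and of capillary endothelium in the lung, *Aqp3* passes glycerol as well as water and is known from basal cells of the large airways, *Aqp4* lies in basolateral membranes of airway cells and is the main water channel of astrocytes, and *Aqp5* is the water channel of the apical membrane of alveolar type 1 (AT1) cells and of gland cells.

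The pore motif is what the members share by descent, and its codons are shown here because they let a reader see how far the paralogs have drifted apart at the base level. Each line gives 45 bases of the coding strand read from the GENCODE vM21 transcripts on GRCm38, with 18 bases to either side of the motif in lower case and the 9 motif bases in capitals.

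*Aqp1*, motif 1, exon 1 of 4, chr6:55336698-55336742, plus strand: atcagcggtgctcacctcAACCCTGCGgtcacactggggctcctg
*Aqp3*, motif 1, across the junction of exons 2 and 3 of 6, chr4:41095145-41095151 and chr4:41094801-41094838, minus strand: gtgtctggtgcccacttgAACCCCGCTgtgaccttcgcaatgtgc
*Aqp5*, motif 1, exon 1 of 4, chr15:99591458-99591502, plus strand: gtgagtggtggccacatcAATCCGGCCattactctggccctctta
*Aqp1*, motif 2, exon 3 of 4, chr6:55345819-55345863, plus strand: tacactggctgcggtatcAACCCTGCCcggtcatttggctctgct
*Aqp3*, motif 2, exon 5 of 6, chr4:41093823-41093867, minus strand: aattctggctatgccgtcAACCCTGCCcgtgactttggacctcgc
*Aqp5*, motif 2, exon 3 of 4, chr15:99593252-99593296, plus strand: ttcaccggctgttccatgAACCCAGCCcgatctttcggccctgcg

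The motif was searched in frame as AANCCNGCN, where the first N was T or C, on the coding strand in the longest coding sequence of each gene. All 4 members held 2 copies, and 153 of 21739 coding genes (0.704%), these 4 among them, held 2 or more. The first exon of *Aqp5*, which holds its first motif, is the exon that carries the cassette on the altered allele. Over the 708 to 785 coding bases that aligned without a gap, the members were 61.5% to 65.1% identical pairwise. The longest stretch of identical bases shared by any pair of transcripts was 20 bases (*Aqp4* and *Aqp5*), against a read of 120 bases. How reads with several matches were counted is not given in the sources used here.

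Cells were kept with less than 15% of reads on the 37 mitochondrial genes, which left 92 cells and removed 49. The kept cells had 142003 to 2170760 reads (median 553963). *Ager*, the receptor for advanced glycation end products and a marker of AT1 cells, at 5000 CPM (counts per 1000000 reads) or more made a cell AT1, and *Sftpc*, surfactant protein C of alveolar type 2 (AT2) cells, at 8000 CPM or more made it AT2. This gave 45 AT1 cells, 11 AT2 cells, 36 other cells and no cell over both thresholds. Among kept cells *Ager* was at least 9335 CPM in AT1 cells and at most 1402 CPM outside them, and *Sftpc* was at least 25437 CPM in AT2 cells and at most 7774 CPM outside them. The labels name every cell an alveolar type 1 cell, which the *Ager* level of 47 of the 92 goes against. By lists of other markers, AT1 cells had a median of 90% of 10 AT1 markers at 100 CPM or more, and AT2 cells a median of 87.5% of 8 AT2 markers. The other cells were divided by which of 4 lists (basal, club, ciliated and fibroblast; not AT1 or AT2) had the largest share of its markers at 100 CPM, and 7 were basal-like, 12 club-like, 13 ciliated-like, 2 fibroblast-like and 2 unnamed. In 7 of these 36 cells the leading share was exactly 50%, and in 3 a further list also reached that share.

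*Aqp5* (chr15:99590782-99594829, plus strand, between *Aqp2* and *Aqp6*) was the aquaporin of AT1 cells. It had 14863 reads in the 45 AT1 cells, or 643 CPM (95% interval 632 to 653), 200 reads or 30.9 CPM (26.7 to 35.5) in the 11 AT2 cells, and 543 reads or 20.1 CPM (18.4 to 21.8) in the 36 other cells, or 12.4 CPM without the highest of them. AT1 cells were thus 29-fold above the other 47 kept cells together, a log2 ratio of 4.86 (4.75 to 4.97). A read of *Aqp5* was found in 44 of 45 AT1 cells (97.8%, Clopper-Pearson interval 88.2 to 99.9%), in 8 of 11 AT2 cells (72.7%, 39.03 to 93.98%) and in 17 of 36 other cells (47.2%, 30.4 to 64.5%). After every cell had been thinned to 90000 reads the shares were 93.3%, 54.5% and 33.3%. The share among AT2 cells overlaps that of both neighbours by its interval, while AT1 and other cells do not overlap.

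**Figure D1:**
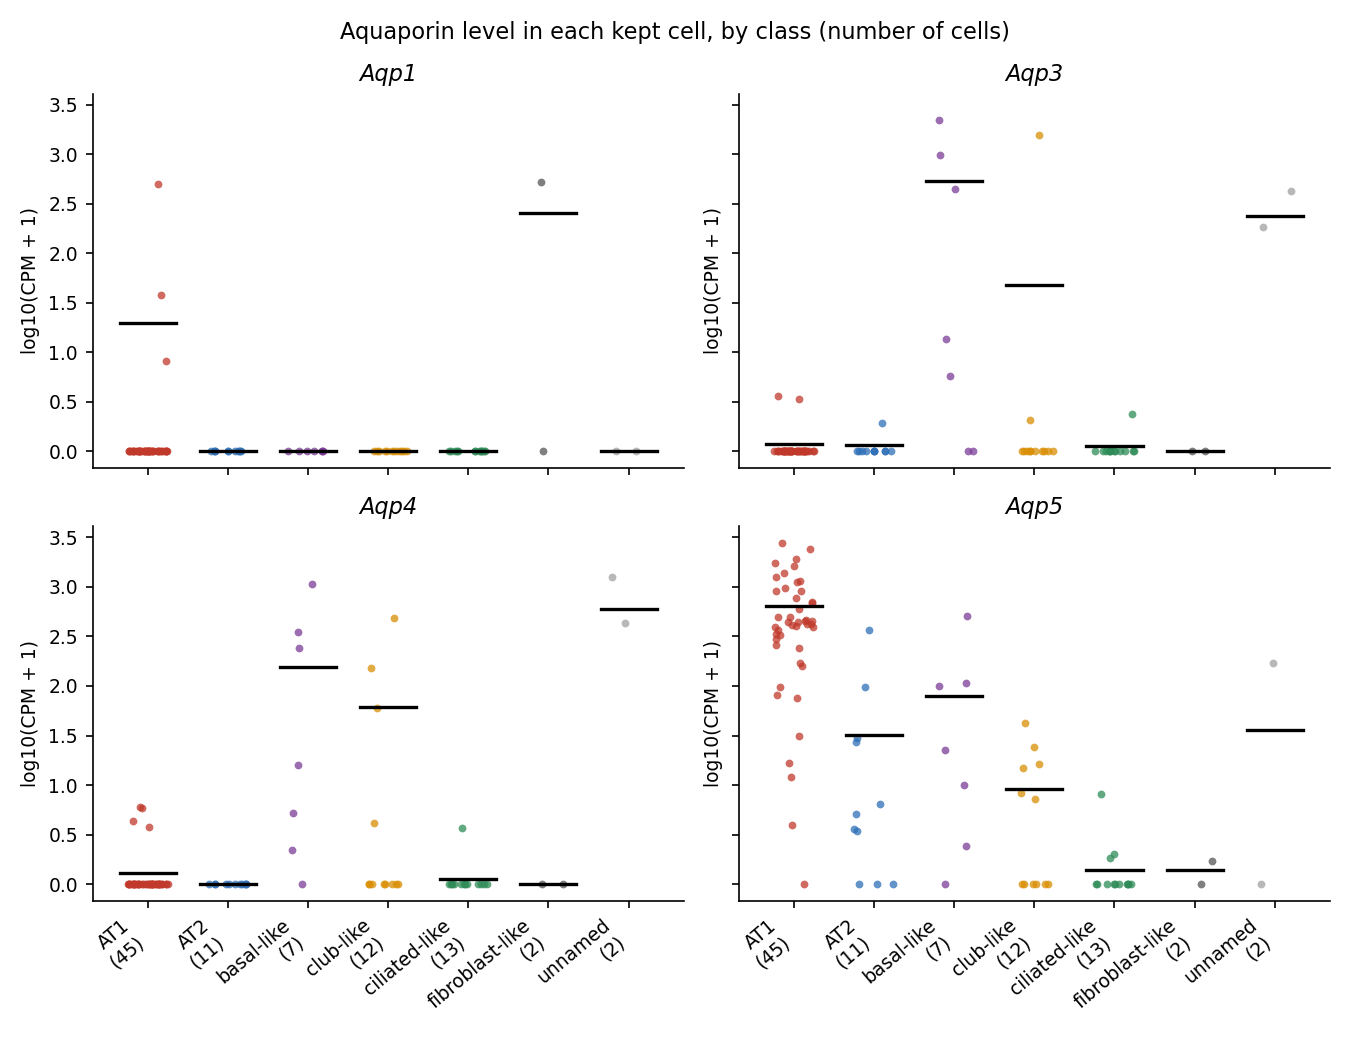
Level of each aquaporin in the 92 kept cells, as log10(CPM + 1), by class with the number of cells. Each point is 1 cell and each bar the CPM of the summed reads of the class. *Aqp5* points fill the AT1 column up to 2749 CPM, *Aqp3* and *Aqp4* points above 100 CPM lie in basal-like, club-like and unnamed cells, and *Aqp1* is above 0 in 4 cells.

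Within the AT1 class the level of *Aqp5* ran from 0 to 2749 CPM with a median of 440 CPM, and the middle of the class lay between 256 and 900 CPM (quartiles). 9 AT1 cells had 1000 CPM or more and 8 had less than 100 CPM. The highest *Aqp5* value outside the class was 505 CPM, in a basal-like cell, and 16 of the 45 AT1 cells lay above it. Only 1 of the 47 other kept cells exceeded the AT1 median. The AT1 cell without a read, at chip column 8 and row 31, had 377229 reads in all, 10983 CPM of *Ager* and 100.7 CPM of *tdTomato*. Across the 45 AT1 cells *Aqp5* had a Spearman's rho of -0.11 with *Ager*, 0.02 with total reads, -0.10 with the mitochondrial share and 0.16 with *tdTomato*. All cells share 1 chip and 1 mouse, and these coefficients are a description with no p-value. In chip columns 1 to 10 the class had 650 CPM in 26 cells, and in columns 11 to 20 it had 633 CPM in 19 cells.

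**Figure D2:**
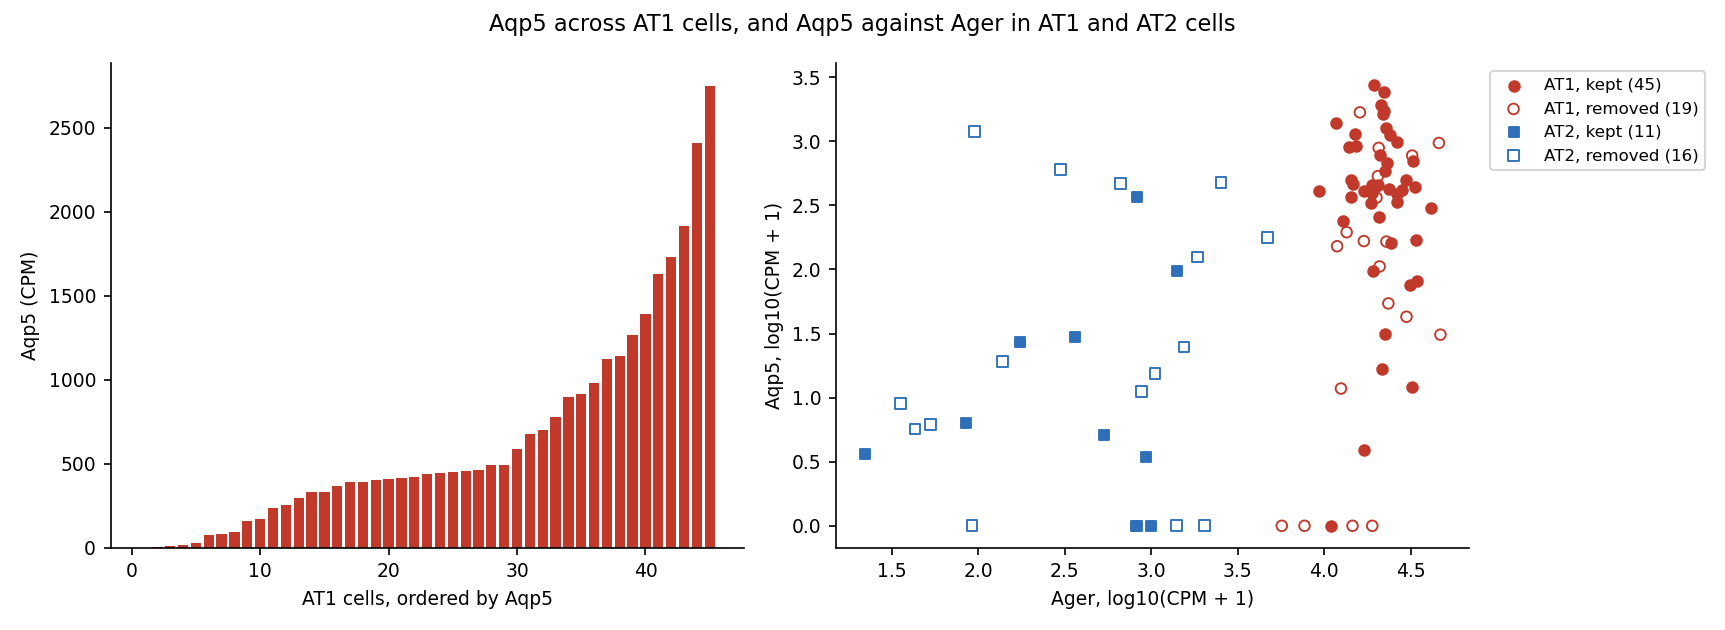
Left, *Aqp5* in CPM in each of the 45 kept AT1 cells in increasing order. Right, *Aqp5* against *Ager* as log10(CPM + 1) in AT1 (circles) and AT2 cells (squares), with filled marks for kept cells and open marks for cells removed by the mitochondrial share. The AT1 cells rise from 0 to 2749 CPM, and 1 of 11 kept and 6 of 16 removed AT2 cells reach 100 CPM of *Aqp5*. AT2 cells lie below AT1 cells in *Ager* by the class rule.

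The *Aqp5* reads of AT2 cells came mostly from a pair of cells. The 11 cells ranged from 0 to 369 CPM with a median of 4.14 CPM. The cell at column 7 and row 36 held 53.5% of the 200 reads (369 CPM) and the cell at column 18 and row 29 held 66 reads (96.8 CPM), while 3 cells had none and 3 had 1 to 3 reads. Without the first of these cells the class had 15.03 CPM. For each 1000 *Ager* reads, AT1 cells had 29.3 *Aqp5* reads (28.8 to 29.7) and AT2 cells 51.5 (44.5 to 59.4). *Ager* also divided AT1 from the other cells, so a higher ratio outside AT1 follows in part from the class rule. Over single AT1 cells this ratio ran from 0 to 142 with a median of 22.4, a range that contains the pooled AT2 value, and 2 of the 11 AT2 cells lay above it. Reads of *tdTomato* were seen in 2 of 11 AT2 cells against 39 of 45 AT1 cells.

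Among the other cells the basal-like cells were highest, with 424 *Aqp5* reads or 78.7 CPM (71.4 to 86.6) and a read in 6 of 7 cells. Their values were 505, 105.7, 99.6, 21.6, 9.05, 1.41 and 0 CPM, and without the highest cell, which was also 1 of the 7 cells at the 50% limit of its marker list, the class had 42.5 CPM. The basal-like cells had 21.2 CPM of *Ager*, and 3719 *Aqp5* reads for each 1000 of *Ager*. This ratio was 882 in unnamed, 40.96 in club-like, 26.3 in fibroblast-like and 5.04 in ciliated-like cells. Cells outside AT1 were set apart by low *Ager*, so a high ratio there follows in part from the class rule. It rests on few *Ager* reads, and nothing about *Aqp5* is concluded from it. Club-like cells, the secretory cells of the small airways, had 8.05 CPM (6.43 to 9.96) with a read in 6 of 12 and at most 40.98 CPM in a cell (5.33 CPM without it). Ciliated-like cells had 3 reads in 13 cells, each in a different cell, or 0.394 CPM (0.0813 to 1.15), and no read was left in them after thinning. By pooled CPM the order was AT1, basal-like, AT2, club-like and ciliated-like, but the ranges over cells of basal-like, AT2 and club-like cells overlap. The order of basal-like and AT2 cells turned with the limit on the mitochondrial share, with 46.7 CPM (40.5 to 53.5) in 5 basal-like and 52.2 CPM (44.7 to 60.5) in 6 AT2 cells at a maximum of 0.10, and 69.6 and 95.9 CPM with no maximum.

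*Aqp3* (chr4:41092722-41098183, minus strand), the water and glycerol channel, was nearly absent from the alveolar classes and high in few airway cells. It had 4 reads in 2 of 45 AT1 cells, 1 read in 11 AT2 cells and 1 in 13 ciliated-like cells, against 2852 reads or 530 CPM (510 to 549) in the 7 basal-like cells. The basal-like values were 2199, 983, 443, 12.7, 4.74, 0 and 0 CPM, so 3 cells were high and 4 were at or near 0. Without the highest cell the class had 299 CPM. Club-like cells had 492 reads or 46.6 CPM (42.6 to 50.9), of which all but 1 came from the cell at column 9 and row 24. That cell had 1555 CPM of *Aqp3*, 238 CPM of *Krt5*, the keratin of basal cells, and 41995 CPM of the club gene *Scgb1a1*. The 2 unnamed cells had 185 and 420 CPM. For AT1 cells against all other kept cells the log2 ratio was -9.26 (-11.13 to -7.90).

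*Aqp4* (chr18:15389496-15410982, minus strand) had a like distribution with more cells in the club-like class. It had 7 reads in 4 of 45 AT1 cells, none in AT2 cells, which allows up to 0.463 CPM at 3 counts, and 1 read in ciliated-like cells. The 7 basal-like cells had 826 reads or 153 CPM (143 to 164), with 1071, 353, 242, 15.1, 4.23, 1.23 and 0 CPM. Without the first of these, which is also the cell with the most *Aqp5* outside AT1 cells, the class had 75.3 CPM. The 12 club-like cells had 640 reads or 60.6 CPM (56.02 to 65.5), and the 4 cells with a read had 482, 150, 59.6 and 3.17 CPM. Without the highest the class had 17.7 CPM. The 2 unnamed cells were high again, with 427 and 1272 CPM. The second of them had 6694 CPM of *Sftpc*, so that with a threshold of 4000 CPM, which moved it and 2 club-like cells into AT2, the AT2 class had 24.5 CPM of *Aqp4* and 8.21 CPM of *Aqp3*. The log2 ratio of AT1 cells against all other kept cells was -7.61 (-8.93 to -6.57). The annotation has an antisense gene whose span overlaps that of *Aqp4* and which has no row in the matrix. The strand setting of the counting is not given in the sources used here. Whether any *Aqp4* reads come from that gene was not tested.

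**Figure D3:**
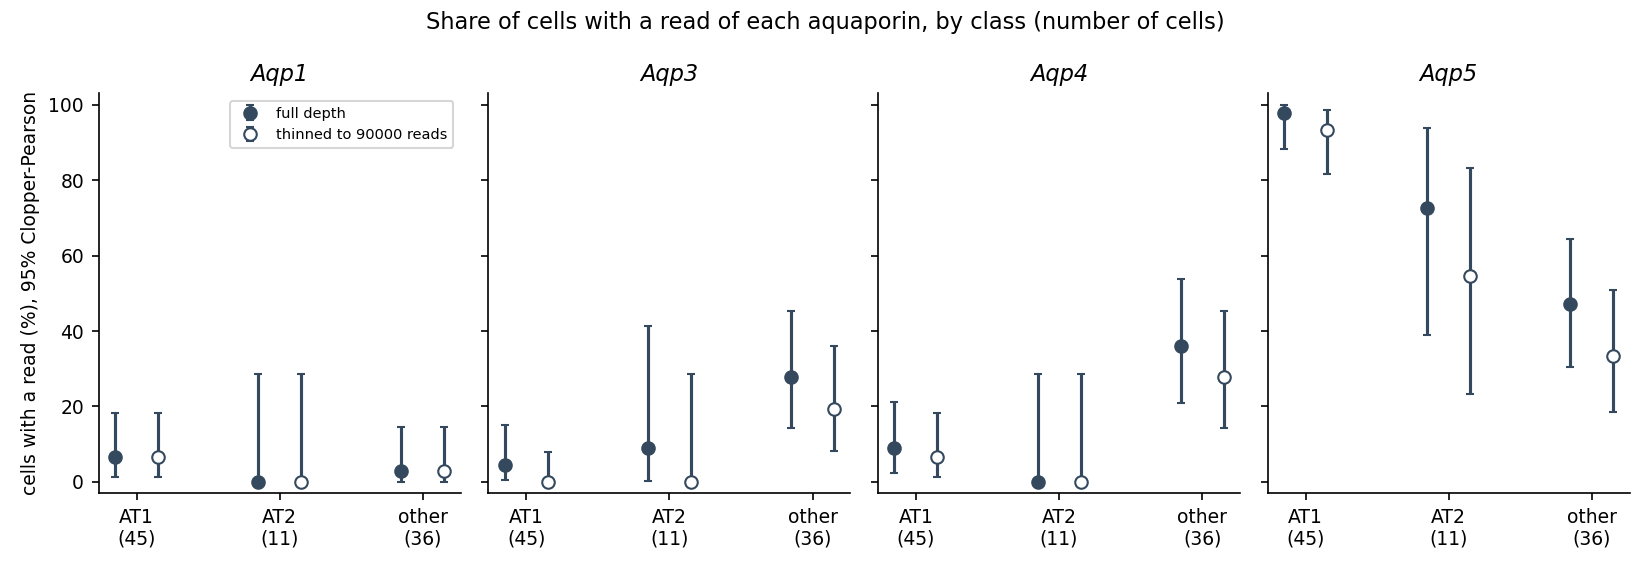
Percent of cells with at least 1 read of each aquaporin in AT1, AT2 and other cells, at full depth (filled) and after thinning to 90000 reads (open), with 95% Clopper-Pearson intervals. *Aqp5* falls from 97.8% in AT1 to 47.2% in other cells, and *Aqp3* and *Aqp4* are at 8.89% or less in AT1 and at 27.8% and 36.1% in other cells.

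The reads of *Aqp3* and *Aqp4* in alveolar cells were 1 to 3 per cell. Of the 6 kept cells with 1 to 3 *Aqp3* reads, 5 lay in a chip column that also held a cell with 100 CPM or more of *Aqp3*, against 27 of 79 cells without a read. For *Aqp4* it was 6 of 8 against 29 of 75. By chip rows the counts were 0 of 6 against 9 of 79 for *Aqp3* and 3 of 8 against 10 of 75 for *Aqp4*. The libraries of a chip were pooled, and the part of this in the low counts was not tested. After thinning no AT1 cell kept an *Aqp3* read, and 3 kept an *Aqp4* read.

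*Aqp1* (chr6:55336432-55348555, plus strand), the channel of endothelium and red cells, was found in 4 kept cells only. AT1 cells had 435 reads or 18.8 CPM (17.1 to 20.7), but 419 of them were in the cell at column 5 and row 34 (501 CPM), and the others were in the cells at column 19 and row 39 (14 reads) and column 2 and row 36 (2 reads). The fourth cell, at column 8 and row 21, had 661 reads (523 CPM). No AT2, basal-like, club-like or ciliated-like cell had a read. The log2 ratio of AT1 against all other kept cells was -0.07 (-0.25 to 0.11), which sets 1 cell against another. Without the fourth cell no read was left outside AT1, and without the first the AT1 class had 0.718 CPM.

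In the 3 AT1 cells with *Aqp1*, 8 or 9 of 10 AT1 markers stood at 100 CPM or more. Of 7 endothelial markers with a row, 1 had a read in 1 of them (2.64 CPM), and the 2 erythroid, 4 mesothelial and 2 immune markers were at 0 in all 3. Over all 92 cells the summed level of the endothelial list ran from 0 to 291 CPM, with *Cldn5*, *Tie1*, *Egfl7* and *Tek* at 0. The fourth cell was fibroblast-like at exactly 50% of the list. It also had reads of all 4 mesothelial markers, *Msln*, *Wt1*, *Upk3b* and *Lrrn4*, with 4725 CPM in sum, and *Rarres2* (7690 CPM) and *Upk3b* (2376 CPM) led it over the other kept cells. The second fibroblast-like cell had no *Aqp1* read. These markers go against the name that the rule gave the fourth cell.

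Between genes, levels were compared per kilobase of merged exons (2627 bases for *Aqp1*, 1829 for *Aqp3*, 6233 for *Aqp4* and 2599 for *Aqp5*). In AT1 cells *Aqp5* had 247 CPM per kilobase, *Aqp1* 7.16, *Aqp3* 0.0945 and *Aqp4* 0.0486. In basal-like cells *Aqp3* led with 290 CPM per kilobase, followed by *Aqp5* with 30.3 and *Aqp4* with 24.6, whereas in CPM without length *Aqp4* stood above *Aqp5*. In club-like cells *Aqp3* had 25.5 and *Aqp4* 9.73 CPM per kilobase, the former from 1 cell, and *Aqp5* had 3.10. Dividing by exon length assumes reads along the whole transcript, which the sources used here do not state, so these orders hold for this scale only. If reads come from a single end of the transcript, CPM without length is the scale to compare, and the orders that differ between the scales turn. In CPM without length *Aqp4* also stood above *Aqp3* in AT1 and club-like cells.

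To read these differences against all genes, the log2 ratio of each class against all other kept cells was computed for the 14517 genes with at least 10 reads. In AT1 cells 28.8% of genes were higher by at least 1 log2 unit and 41.9% were lower, and of the members *Aqp5* was higher, *Aqp3* and *Aqp4* were lower and *Aqp1* was between. In AT2 cells 15.5% were higher and 60.1% lower, and all 4 members were lower. In basal-like cells 22.2% were higher and 60.7% lower, with *Aqp3* and *Aqp4* among the higher and *Aqp1* and *Aqp5* among the lower. With few cells per class a single cell moves many genes past 1 log2 unit, so a member past it is no rare event.

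Over all kept cells, most cells with an aquaporin read had reads of 1 member, which mainly describes the AT1 cells. At 1 read or more, 56 of the 92 kept cells had reads of 1 member, 16 of 2, 5 of 3, none of all 4, and 15 had none. The 56 cells were 35 AT1, 9 AT2 and 12 other cells. At 100 CPM or more, 44 cells had 1 member, 3 had 2 and 2 had 3. In AT1 cells *Aqp5* was joined by another member in 9 cells at 1 read, and in 1 cell at 100 CPM, the *Aqp1* cell at column 5 and row 34. In AT2 cells no cell had more than 1 member.

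Of the 36 other cells, 7 had reads of 2 members and 5 of 3, and no AT1 or AT2 cell had 3. Of the 7 basal-like cells among them, 2 had reads of 2 members and 4 of 3. *Aqp5* was read with *Aqp3* in 7 and with *Aqp4* in 8 of the 36 cells. *Aqp3* and *Aqp4* were both read in 7 of the 36, *Aqp3* alone of this pair in 3, *Aqp4* alone in 6 and neither in 20. At 100 CPM, 10 cells had either gene, and these were 5 basal-like, 3 club-like and both unnamed cells. Only 3 of the 10 had both, which were the 2 unnamed cells and the basal-like cell at column 17 and row 10, while 3 had *Aqp3* alone and 4 had *Aqp4* alone. In basal-like cells with reads of both genes the balance went from 104.7 *Aqp3* reads for each *Aqp4* read in 1 cell to 0.00442 in another. The 3 other cells with *Aqp5* at 100 CPM or more all had *Aqp4* at that level too. This depends on the cutoff, as the basal-like cell at column 14 and row 13 had 99.6 CPM of *Aqp5* and 15.1 CPM of *Aqp4*.

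**Figure D4:**
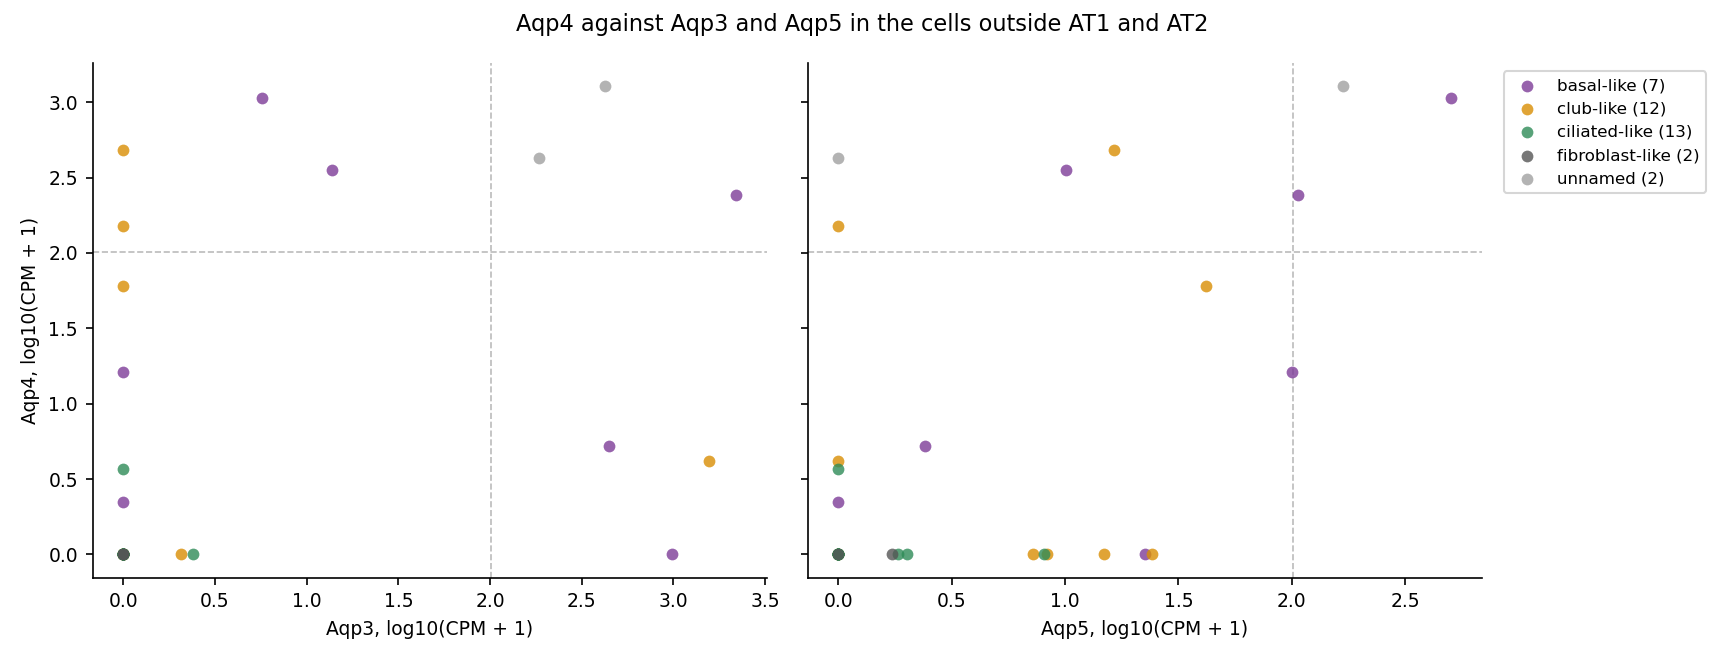
*Aqp4* against *Aqp3* (left) and against *Aqp5* (right) as log10(CPM + 1) in the 36 kept cells outside AT1 and AT2, coloured by class. Dashed lines mark 100 CPM. In the left panel 3 points lie beyond both lines, 3 beyond the line of *Aqp3* alone and 4 beyond that of *Aqp4* alone, and in the right panel 3 points lie beyond both.

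Over the 36 other cells the Spearman's rho was 0.51 between *Aqp3* and *Aqp4* (Pearson's r 0.26), 0.39 between *Aqp3* and *Aqp5*, and 0.44 between *Aqp4* and *Aqp5* (r 0.70, but 0.29 when the 2 cells with the most outlying *Aqp4* were left out). *Aqp3* with the basal keratin *Krt5* gave 0.64 and *Aqp4* with *Krt5* 0.47. Within the 7 basal-like cells alone *Aqp3* and *Aqp4* gave -0.07. Most of these cells have no read of either gene, and all share 1 chip, so the coefficients describe which classes hold the reads. By chip columns, *Aqp3* with *Aqp4* gave 0.54 in the 21 cells of columns 1 to 10 and 0.66 in the 15 cells of columns 11 to 20.

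The genes whose pattern over the 92 cells was most like that of *Aqp5*, out of 4924 genes with reads in at least 20 cells, were *Sparc* (rho 0.75), *Pmp22* (0.72), *Vegfa* (0.71), *Igfbp6* (0.70) and *Emp2* (0.69). *Sparc* encodes a matricellular protein, *Pmp22* and *Emp2* membrane proteins of 1 family, *Vegfa* the vascular growth factor and *Igfbp6* a binding protein of insulin-like growth factors. All 5 were highest in AT1 cells among the 5 larger classes, from 829 CPM for *Igfbp6* to 4402 CPM for *Sparc*. This follows largely from the choice, since they were picked in the same cells for likeness to *Aqp5*. *Ager*, the class gene, had a rho of 0.69 with *Aqp5*, and *Emp2* and *Vegfa* are on the AT1 marker list. Within the 45 AT1 cells the likeness was far weaker, and the first 5 of 1891 genes were *Emp2* (0.38), *Igfbp6* (0.37), *Tacc2* (0.37), *Nfkbia* (0.36) and *Rnase4* (0.35). *Emp2* and *Igfbp6* were among the first 5 both over all kept cells and within AT1 cells. The values within AT1 cells are the highest out of 1891 genes in 45 cells. How high a rho such a choice alone would give was not tested.

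For *Aqp3* the 5 genes were *Gm28900* (0.55), *Fxyd3* (0.55), *Apoe* (0.52), *Fmo2* (0.50) and *Gm7290* (0.49). *Fxyd3*, a regulator of the sodium pump, had 646 CPM in basal-like and 0.346 CPM in AT1 cells, and *Apoe*, the apolipoprotein, 5443 and 3.72 CPM. For *Aqp4* they were *Wnt4* (0.55), *Krt15* (0.49), *Cyp2f2* (0.47), *Fxyd3* again (0.46) and *Ifitm1* (0.45). *Wnt4*, a secreted Wnt ligand, had 309 CPM in basal-like and 4.83 CPM in club-like cells, while *Cyp2f2*, a cytochrome of club cells, had 12589 and 12359 CPM. *Krt15* and *Cyp2f2* are on the basal and club marker lists that divided these cells. For *Aqp1* the likeness rests on 4 cells, and *Hspb8* led with 0.38, ahead of *Tmem147* (0.37), *Htra1* (0.36), *Zranb1* (0.35) and *Arhgef1* (0.34).

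Water follows ions, and some proteins hold or regulate aquaporins at the membrane. A list of 13 such genes, of which 12 had a row, was compared between AT1 and other cells. By at least 1 log2 unit, 6 were higher in AT1 cells, 4 were lower and 2 lay between, with a median log2 ratio of 0.09 that falls in the gap between both sides, while over all tested genes 30.6% were higher and 40.4% lower with a median of -0.28. The subunits of the epithelial sodium channel, which takes up sodium from alveolar fluid, were all higher in AT1 cells. *Scnn1g* had 692 CPM in 38 of 45 AT1 cells against 15.9 CPM in other cells, a log2 ratio of 5.45 (5.31 to 5.59), *Scnn1b* 525 against 17.3 CPM and *Scnn1a* 765 against 95.6 CPM. *Dag1*, dystroglycan of the complex that anchors aquaporin 4 in astrocytes, was at 987 against 91.9 CPM.

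The genes furthest on the lower side rested on few cells. *Trpv4*, a calcium channel that senses swelling, had 2 reads in AT1 cells, or 0.0865 CPM, against 58.5 CPM in 5 other cells, a log2 ratio of -9.40 (-12.45 to -7.55). *Cftr*, the chloride channel, had 0.0432 CPM in AT1 cells and 12.1 CPM in 3 other cells, a log2 ratio of -8.13 (-13.44 to -5.64), but 55.9 CPM in 2 AT2 cells. *Kcnj10*, a potassium channel, was read in 1 AT1 cell and 1 other cell, at 7.25 CPM in the latter class, so its log2 ratio of -7.39 (-12.70 to -4.89) describes single cells. *Atp1b1*, the beta subunit of the sodium pump, was lower in AT1 cells with 126.4 against 483 CPM.

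**Figure D5:**
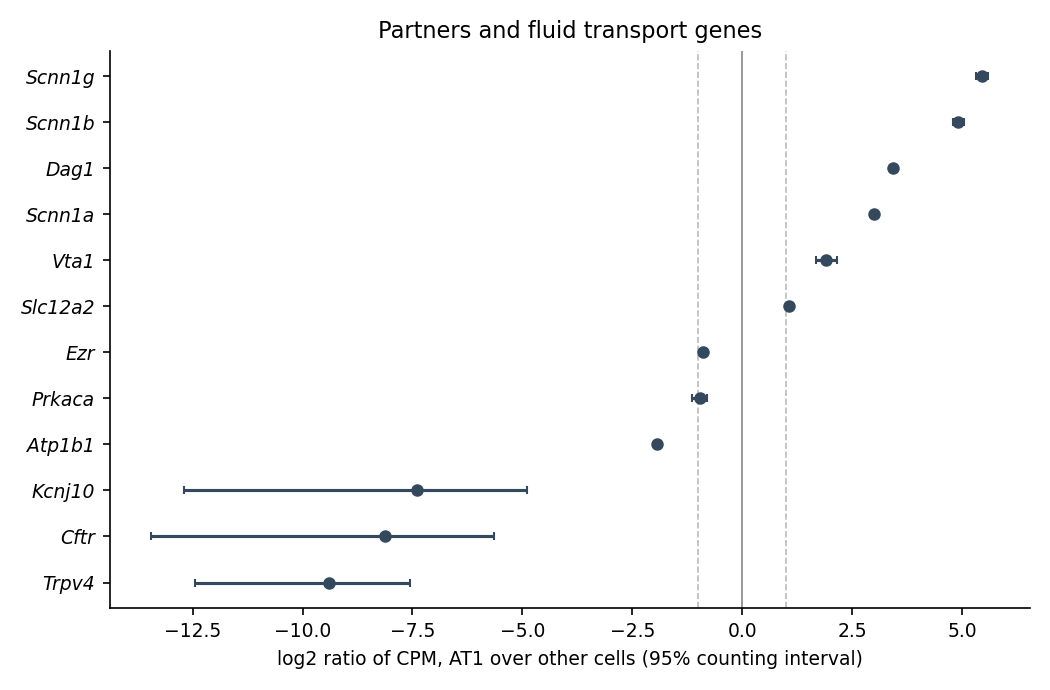
Log2 ratio of CPM, AT1 over other cells, for the 12 partner and fluid transport genes, with 95% counting intervals (narrower than the mark for genes with many reads). Dashed lines mark 1 log2 unit to either side of 0. The sodium channel subunits and *Dag1* lie between 3 and 5.45, and *Kcnj10*, *Cftr* and *Trpv4* lie between -7.39 and -9.40 with wide intervals.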

How the data were processed

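The authors trimmed reads with Trim Galore, checked them with FastQC, mapped them with HISAT2 to GRCm38 and counted them with featureCounts, and versions, annotation and strand setting are not given in the sources used here. The deposited read counts are raw and whole, without molecular identifiers, for 17136 genes in 141 cells with 91402 to 2170760 reads. All cells also passed the study's limits of 90000 reads and 500 genes, and cells were seen as singlets by microscopy, so no doublet caller was run. The members and all lists were chosen with earlier results of these data known.

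CPM are summed reads of a class per 1000000 summed reads, with exact Poisson 95% intervals, and shares of cells have Clopper-Pearson intervals. A 0 allows 3 counts. Ratios have a conditional binomial interval, which like the others ignores that PCR copies are not independent. For the ratio over all genes 0.5 reads were added. Thinning drew 90000 reads per cell, and correlations used the natural log of 1 plus counts per 10000 reads. Named genes are the members, *tdTomato*, *Ager*, *Sftpc*, the 5 genes most alike each member and the 5 partners with the largest ratio. Others (*Krt5*, *Scgb1a1*, *Rarres2*, further partners, marker genes) were named after their values were seen. From the list of partners 2 genes were taken out before its counts and are not reported here. Of 8 further aquaporins looked for none has a row, and they were not analysed here. Positions come from GENCODE vM21 on GRCm38. Alternatives changed the thresholds, depth, library size, weight of cells, detection limit, chip columns and marker rule. The ratio, intervals and likeness were tested on simulated data. Coding sequences were aligned with Biopython 1.88, figures drawn with matplotlib 3.10.9, and all else run in Python 3.11.15 (pandas 2.3.3, scipy 1.17.1, numpy 2.4.6).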

Additional observations from a re-analysis of the deposited data

Results flagged for a closer look

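The 49 cells removed for their mitochondrial share enter no class value above, apart from the plot of *Aqp5* against *Ager*, and they held aquaporin reads. The 19 removed AT1 cells had 4198 *Aqp5* reads or 526 CPM, with a read in 15 of 19, against 643 CPM in kept AT1 cells. The 16 removed AT2 cells had 843 *Aqp5* reads or 192 CPM, with a read in 13 of 16, against 30.9 CPM in the 11 kept AT2 cells, and 6 of the 16 had 100 CPM or more against 1 of the 11. Their *Ager* level was 1139 CPM against 599 CPM in kept AT2 cells, and their median depth was 244845 against 413806 reads. The median share of AT1 markers at 100 CPM was 10% in both groups, with a highest value of 60% in removed and 30% in kept cells. The cell at 60%, at column 11 and row 23, had 176 CPM of *Aqp5*, 4696 CPM of *Ager* and 8718 CPM of *Sftpc*. The removed AT2 cells had 15.6% to 36.9% mitochondrial reads, and the part of this share in the difference was not tested. The 1 removed basal-like cell had 638 CPM of *Aqp3* (450 reads), within the range of the kept basal-like cells.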

How the results depend on the processing

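No paired analysis was possible because all cells come from 1 mouse. The settings without the cell with the most reads, by chip columns and at 100 CPM were chosen after seeing the data. Under the alternatives, 36 of 48 log2 ratios, all but 12 of the shares and 49 of 60 counts of cells with both members moved by less than their counting interval or, for counts, by less than 1.5 times, and the others follow. For *Aqp5* the log2 ratio of AT1 against all other kept cells (4.86) was 5.04 with a mitochondrial maximum of 0.10, 4.01 with all deposited cells, 4.69 with *Ager* at 10000 CPM, 4.28 after thinning and also 4.28 as the mean of the cells' CPM and 4.70 without the AT1 cell with the most reads. The ratio of *Aqp3* after thinning was bounded at -7.39. The ratio of *Aqp1* changed sign, to at least 8.26 with the maximum of 0.10, 0.37 after thinning, 0.12 as the mean of the cells' CPM, at least 7.66 without the cell with the most reads outside AT1 and at least 2.69 in chip columns 11 to 20. All of its reads outside AT1 were in 1 cell. Of the levels, the following moved by over 1.5 times. *Aqp1* in AT1 cells was 40.9 CPM with the maximum of 0.10, 11.6 after thinning and 12.1 as the mean of cells, and in other cells 0, 11.7 and 14.5 CPM. *Aqp3* was 0 CPM in AT1 and AT2 cells after thinning. *Aqp4* was 0.741 CPM in AT1 cells after thinning, and in other cells 45.4 with the maximum of 0.10, 112.7 after thinning and 113.4 as the mean of cells. *Aqp5* was in AT2 cells 52.2 with the maximum of 0.10, 95.9 with all cells and 48.6 as the mean of cells, and 30.2 in other cells after thinning. The share of cells with a read changed mainly with the detection limit. For *Aqp3* it was 0% in AT1 and in AT2 cells after thinning, at 3 reads and at 10 CPM. For *Aqp4* in AT1 cells it was 2.22% at 3 reads and 0% at 10 CPM. For *Aqp5* it was 36.4% of AT2 and 25% of other cells at 10 CPM and 100% of AT1 cells with the maximum of 0.10, where *Aqp1* was at 0% of other cells. Cells with reads of both *Aqp1* and *Aqp5* were 1 with the maximum of 0.10 and 1 at 100 CPM. Those with both *Aqp3* and *Aqp4* were 4 at 10 CPM and 3 at 100 CPM. Those with both *Aqp3* and *Aqp5* were 4 after thinning, 4 at 3 reads, 3 at 10 CPM and 2 at 100 CPM, and those with both *Aqp4* and *Aqp5* were 7 with the maximum of 0.10, 6 at 10 CPM and 3 at 100 CPM. Genes higher by 2 log2 units were 2622 in AT1, 1179 in AT2 and 1636 in basal-like cells. The division of the other cells gave the same numbers under both alternatives. The levels of *Aqp5* in AT2, other, basal-like and club-like cells and of *Aqp3* and *Aqp4* in basal-like and club-like cells each change by over 1.5 times without 1 cell, no animal was replicated, and counts of 1 to 3 reads are near the limit of what this depth can show.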
